A study of Mus musculus with 2 samples.

Results

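The 72 genes described here are the mouse mitochondrial carriers of the Slc25a family (47 genes) and the genes of the Timm and Tomm families (15 and 10), which import proteins into mitochondria. They were chosen by name alone from 21779 protein-coding genes of build GRCm38.p6, as every RefSeq symbol in which Slc25a, Timm or Tomm is followed by a digit. The protein Sap130 belongs to the Sin3 corepressor, which removes acetyl groups from histones, and its binding had been mapped by ChIP-seq in heart tissue of C57BL/6 mouse embryos at E12.5. There was 1 library from chromatin pulled down with a rabbit antibody to Sap130 and 1 input library without antibody. The labels name no mutation or treatment and do not say whether hearts were pooled. The question put was which genes Sap130 targets in the embryonic heart.

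The deposited list gives 14886 peak summits, each a single base with a score that is the −log10 of a p or q value. The scores reached 428, and their median was 33.3. They rank summits within this list and are no fold over input. A gene counted as marked when a summit lay within 1000 bp of its first or last base. There was 1 library of each kind, so no value has a replicate error, the sequencing depth is unknown, and the exact (Clopper-Pearson) 95% intervals below cover counting error only. These intervals treat genes as independent draws, which paralogs and genes that share a summit may not be, and they are no test. Genes are not replicates of the heart, so differences between groups of genes are given as counts and medians and were not tested. Summits were at 3 of 6 heart muscle genes (Tnnt2, Actn2 and Nkx2-5, but not Myh6, Myh7 or Tnni1), at 0 of 3 blood genes and at 0 of 2 liver genes. The share over all protein-coding genes was 48.4%, so the heart muscle genes were marked about as often as any gene. Binding is not expression, so these counts do not settle which cells were sampled.

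Mitochondria make only a few of their own proteins and take up the rest from the cytosol. The TOM complex is the entry pore of the outer membrane, the TIM23 complex passes proteins with a cleavable presequence across or into the inner membrane, and the TIM22 complex inserts proteins with several membrane spans. The carriers of the Slc25a family are the main cargo of TIM22, and the small TIM proteins escort them through the intermembrane space. In heart muscle, which relies on oxidative metabolism, carriers exchange ADP for ATP and bring in phosphate, fatty acyl groups and reducing equivalents. For the comparison, carriers were sorted by general knowledge of their adult expression, since these files hold no RNA measurement. Of them, 17 are broadly expressed, 9 are known mainly from certain tissues, and 21 were left as of unsure breadth. These lists were drawn up with earlier results of these data known.

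The 250 bases before the annotated start show the promoters behind the values that follow. One is given for the highest-scoring gene of each group whose summit was near no other protein-coding gene and whose sequence was at hand, and the 3 adenine nucleotide carriers are added because they are marked differently. Sequences are RefSeq's for GRCm38.p6, 5′ to 3′ on the strand of the gene, and capitals mark matches on either strand to the motifs described further on, of which Slc25a10 and Slc25a16 hold none in these bases. Slc25a3 is at chr10:91123968-91124217 (minus strand), Slc25a5 at chrX:36795347-36795596 (plus), Slc25a4 at chr8:46211063-46211312 (minus), Slc25a31 at chr3:40708621-40708870 (plus) and Slc25a10 at chr11:120491587-120491836 (plus). Slc25a16 is at chr10:62920383-62920632 (plus), Tomm40 at chr7:19715430-19715679 (minus), Timm50 at chr7:28312047-28312296 (minus) and Timm22 at chr11:76406675-76406924 (plus).
Slc25a3: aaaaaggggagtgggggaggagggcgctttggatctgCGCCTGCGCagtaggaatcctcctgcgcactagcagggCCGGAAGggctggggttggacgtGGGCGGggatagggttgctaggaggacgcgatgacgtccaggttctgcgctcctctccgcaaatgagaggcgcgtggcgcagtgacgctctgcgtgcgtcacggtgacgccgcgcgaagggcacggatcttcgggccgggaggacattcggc
Slc25a5: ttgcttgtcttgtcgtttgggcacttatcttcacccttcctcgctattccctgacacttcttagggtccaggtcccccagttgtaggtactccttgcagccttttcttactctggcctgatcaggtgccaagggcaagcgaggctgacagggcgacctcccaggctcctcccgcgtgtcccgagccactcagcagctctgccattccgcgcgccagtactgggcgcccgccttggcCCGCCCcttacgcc
Slc25a4: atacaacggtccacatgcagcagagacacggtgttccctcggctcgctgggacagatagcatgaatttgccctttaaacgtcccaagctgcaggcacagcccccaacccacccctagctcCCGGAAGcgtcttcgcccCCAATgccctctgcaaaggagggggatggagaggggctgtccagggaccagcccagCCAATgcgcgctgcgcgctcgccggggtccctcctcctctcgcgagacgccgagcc
Slc25a31: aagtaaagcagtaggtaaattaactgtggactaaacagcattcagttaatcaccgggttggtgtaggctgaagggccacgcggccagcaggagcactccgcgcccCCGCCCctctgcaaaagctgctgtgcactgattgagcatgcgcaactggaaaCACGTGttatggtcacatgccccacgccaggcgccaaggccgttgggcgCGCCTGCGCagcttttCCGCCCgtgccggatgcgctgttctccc
Slc25a10: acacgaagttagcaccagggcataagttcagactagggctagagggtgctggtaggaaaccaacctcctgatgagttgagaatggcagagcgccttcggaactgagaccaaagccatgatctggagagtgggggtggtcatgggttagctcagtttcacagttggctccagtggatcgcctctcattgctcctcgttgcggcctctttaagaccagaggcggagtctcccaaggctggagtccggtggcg
Slc25a16: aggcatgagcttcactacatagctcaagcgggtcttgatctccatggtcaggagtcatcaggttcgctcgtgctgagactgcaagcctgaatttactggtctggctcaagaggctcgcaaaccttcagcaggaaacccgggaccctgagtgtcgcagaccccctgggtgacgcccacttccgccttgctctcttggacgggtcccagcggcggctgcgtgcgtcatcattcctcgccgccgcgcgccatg
Tomm40: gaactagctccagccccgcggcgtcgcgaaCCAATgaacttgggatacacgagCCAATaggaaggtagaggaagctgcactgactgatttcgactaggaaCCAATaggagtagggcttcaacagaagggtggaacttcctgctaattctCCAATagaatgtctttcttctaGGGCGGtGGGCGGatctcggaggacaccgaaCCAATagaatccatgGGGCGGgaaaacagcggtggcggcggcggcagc
Timm50: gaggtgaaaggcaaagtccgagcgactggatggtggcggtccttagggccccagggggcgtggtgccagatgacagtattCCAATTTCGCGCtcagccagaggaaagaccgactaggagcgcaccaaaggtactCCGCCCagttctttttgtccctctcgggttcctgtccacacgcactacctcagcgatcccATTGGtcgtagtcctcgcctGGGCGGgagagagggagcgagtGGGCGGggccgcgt
Timm22: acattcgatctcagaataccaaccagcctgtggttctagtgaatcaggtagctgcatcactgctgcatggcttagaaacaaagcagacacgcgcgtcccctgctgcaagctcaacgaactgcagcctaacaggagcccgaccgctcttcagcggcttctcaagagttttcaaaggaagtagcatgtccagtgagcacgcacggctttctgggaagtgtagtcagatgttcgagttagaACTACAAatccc

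A Sap130 summit stood at an end of most carrier and import genes. It was found at 58 of 72 genes (80.6%, exact interval 69.5 to 88.9), against 48.4% of all protein-coding genes. The other 14 had no summit inside the gene either, so the count within the gene or near its ends was also 58, against 55.0% of all genes. Among carriers 35 of 47 were marked (74.5%, interval 59.7 to 86.1) and among import genes 23 of 25 (92.0%, interval 74.0 to 99.0). That order turned round when summits shared by 2 or more genes were left out, at 29 of 47 carriers (61.7%) and 12 of 25 import genes (48.0%), against 36.4% of all genes. It also turned round with the 3728 highest-scoring summits, at 20 carriers (42.6%) and 8 import genes (32.0%), against 17.3%. The median of the highest score per gene was 64.6 over the 58 marked genes (quartiles 35.7 and 97.7), against 49.3 over all 10532 marked genes (quartiles 23.7 and 79.4), and 38 of the 58 lay above that second median. When only summits at or above the median score of the whole list were kept, 44 of the 72 genes remained marked, against 31.7% of all genes.

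**Figure D1:**
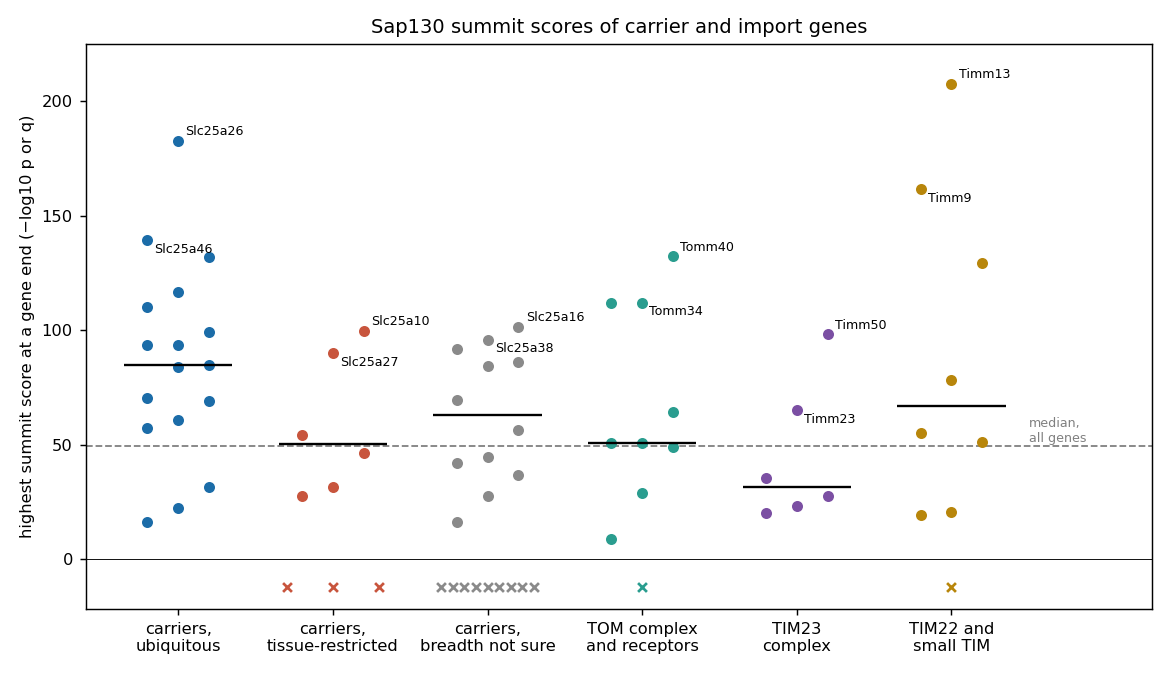
Highest Sap130 summit score at an end of each carrier and import gene, on a linear axis in −log10 units, by group. Each point is 1 gene, bars are group medians, crosses below 0 are genes with no summit at an end, and the dashed line is the median of all marked genes, 49.3; the groups overlap widely, and the crosses fall mostly among carriers.

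Carriers of broad expression were all marked, 17 of 17 (interval 80.5 to 100), against 48.4% of all genes. Their list was drawn up with earlier results of these data known, so the count is no independent test. With the carriers of unsure breadth added it was 29 of 38 (76.3%). Scores of the 17 ran from 16.1 to 183, with a median of 84.7. The highest was at Slc25a26, the carrier of the methyl donor S-adenosylmethionine (chromosome 6, 94500295 to 94604659). Its summit at 94500425, 130 bp inside the gene, had a score of 183, above 98.8% of marked genes or equal to them. Slc25a46, an outer membrane member linked to mitochondrial shape (chromosome 18, 31580164 to 31610532), had 139 from a summit 781 bp inside. Slc25a32, the folate and flavin carrier (chromosome 15, 39091230 to 39112720), had 132 at 39112497, 223 bp inside. Slc25a40, a glutathione carrier (chromosome 5, 8422730 to 8454839), had 117 at 8422548, 182 bp outside. All 4 lay above the upper quartile of marked genes, 79.4.

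The carriers of heart fuels and of energy exchange spread over much of that range. The phosphate carrier gene Slc25a3 had 110, Slc25a5, of the broadly expressed ADP/ATP carrier, 84.7, and the citrate carrier gene Slc25a1 83.8. Slc25a11, the oxoglutarate and malate carrier, had 69.0, while Slc25a20, which brings in acylcarnitines for fatty acid oxidation, had 31.3, below the median of all marked genes. Among nucleotide carriers, Slc25a33 and Slc25a36 (pyrimidine nucleotides) had 99.3 and 57.3, and Slc25a51 (NAD+) had 93.3. Slc25a44, for branched-chain amino acids, had 93.6 and Slc25a28, the broadly expressed iron carrier mitoferrin-2, 70.4. The lowest of the group were Slc25a17, a carrier of peroxisomes, with 22.3 and Slc25a39, the other glutathione carrier, with 16.1. Slc25a39 also held a stronger summit of 50.6 that lay 1346 bp from its nearest boundary and so was not counted at an end, 188 bp downstream of the start in the promoter table.

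Carriers known mainly from certain tissues were marked in 6 of 9 cases (66.7%, interval 29.9 to 92.5), with scores from 27.4 to 99.8 and a median of 50.2. The interval takes in the background of 48.4%. Slc25a10, the dicarboxylate carrier of liver, kidney and fat (chromosome 11, 120491837 to 120501161), had the highest, 99.8 at 120492028, 191 bp inside. Slc25a27, a brain carrier related to the uncoupling proteins (chromosome 17, 43637739 to 43667214), had 89.9 at 43667012, 202 bp inside. Slc25a4, the ADP/ATP carrier of heart and skeletal muscle (chromosome 8, 46207168 to 46211062), had 54.0 at 46210902, 160 bp inside. Slc25a12, the aspartate and glutamate carrier of excitable tissue (chromosome 2, 71274270 to 71367781), had 46.3 at 71367416, 365 bp inside. Slc25a14 of brain had 31.6 and Slc25a30 of kidney 27.4. Slc25a4 and Slc25a12, which are prominent in heart muscle, thus lay near the median of all marked genes, 49.3.

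The 3 tissue-restricted carriers without a mark were Slc25a31, Slc25a37 and Slc25a47. Slc25a31, the ADP/ATP carrier of male germ cells (chromosome 3, 40708871 to 40726094), had its nearest summit 18913 bp away, at Hspa4l. Slc25a37, the mitoferrin-1 of erythroid precursors (chromosome 14, 69241848 to 69285544), had none within 421837 bp of its ends. Slc25a47, a liver carrier (chromosome 12, 108849833 to 108856815), lay 13659 bp from a summit that belongs to Slc25a29.

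Carriers of unsure breadth were marked in 12 of 21 cases (57.1%, interval 34.0 to 78.2), near the share of all genes. Their scores ran from 16.2 to 102, with 62.8 as the median. The highest were Slc25a16 (chromosome 10, 62920632 to 62946494), with 102 at 62920819, 187 bp inside, and Slc25a38, a glycine carrier for haem synthesis (chromosome 9, 120110377 to 120126093), with 95.8 at 120110572, 195 bp inside. Slc25a22, a glutamate carrier (chromosome 7, 141429749 to 141437874), had 91.8 at 141437461, 413 bp inside, and Slc25a25, an ATP-magnesium and phosphate carrier (chromosome 2, 32414487 to 32451470), had 86.0 at 32451237, 233 bp inside. Slc25a15, the ornithine carrier of the urea cycle, had 84.2, and Slc25a42, for coenzyme A, 69.3. The calcium-regulated relatives of Slc25a25, Slc25a23 and Slc25a24, had 56.4 and 27.4. Slc25a29, for basic amino acids, had 44.5, Slc25a13, the aspartate and glutamate carrier citrin, 41.8, Slc25a35 36.7 and Slc25a53 16.2.

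The 9 unmarked carriers of unsure breadth differed in how near a summit was. The nearest summit lay 1469 bp outside Slc25a41 (score 143, at Khsrp), 2722 bp outside Slc25a45 (at Frmd8), 5270 bp outside Slc25a2 (at Taf7) and 6786 bp outside Slc25a54. It was 18893 bp from Slc25a43, 19053 bp from Slc25a34, 28389 bp from Slc25a18, 33201 bp from Slc25a21 and 50257 bp from Slc25a48. In all 9 the summit was outside the gene.

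TOM genes were marked in 9 of 10 cases (90.0%, interval 55.5 to 99.7), against 48.4% of all protein-coding genes. The median of their scores was 50.6, against 49.3 over all marked genes. Tomm40, which encodes the pore itself (chromosome 7, 19701313 to 19715442), had 132 at 19715235, 207 bp inside. Tomm70a, for the receptor of carrier precursors (chromosome 16, 57121714 to 57154530) and Tomm34, for a cytosolic helper of import (chromosome 2, 164053538 to 164071178), both had 112, from summits at 57121935 and 164070898, 221 and 280 bp inside. The presequence receptor genes Tomm20 and Tomm22 both had 50.6. Among the small subunits that steady the pore, Tomm5 (chromosome 4, 45105209 to 45108113) had 64.1 at 45107794, 319 bp inside, Tomm6 49.0 and Tomm7 28.9. Tomm40 and Tomm70a thus had higher scores than the genes of the 3 small subunits. Tomm40l, a relative of the pore, had the lowest score of all marked members, 8.91, and Tomm20l, a relative of the receptor, had no summit within 12678 bp of its ends.

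TIM23 genes were marked in 6 of 6 cases (interval 54.1 to 100), against 48.4% of all protein-coding genes. Their median score was 31.5, against 49.3 over all marked genes. Only Timm50 and Timm23 were above 49.3. Timm50, the receptor of the complex (chromosome 7, 28305516 to 28312046), had 98.3 at 28311882, 164 bp inside. The channel gene Timm23 (chromosome 14, 32180166 to 32201891) had 65.1 at 32202086, 195 bp outside. Timm44, which holds the import motor (chromosome 8, 4259731 to 4275905), had 35.4 at 4275727, 178 bp inside, and the channel gene Timm17a (chromosome 1, 135301535 to 135313737) 27.5 at 135313546, 191 bp inside. Timm21, which links TIM23 to TOM, had 23.3 and Timm17b 20.2. With summits at or above the list's median score alone, 3 of these 6 genes remained marked.

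TIM22 and small TIM genes were marked in 8 of 9 cases (88.9%, interval 51.8 to 99.7), with scores from 19.2 to 208 and a median of 66.8. The widest spread of the import genes was here. Timm13, of a small TIM chaperone (chromosome 10, 80899450 to 80900969), had the highest score of all 72 genes, 208 at 80900647, 322 bp inside. Timm9 (chromosome 12, 71123172 to 71136708) had 162 at 71136474, 234 bp inside, and its partner Timm10 (chromosome 2, 84827021 to 84830213) 130 at 84827173, 152 bp inside. Timm29, a TIM22 subunit (chromosome 9, 21592722 to 21595970), had 78.3 at 21593103, 381 bp inside. Timm8b had 55.2, Timm10b 51.3, the channel gene Timm22 20.6 and Timm8a1, whose human counterpart is mutated in a deafness and dystonia syndrome, 19.2. Timm8a2 had no summit within 68856 bp of its ends.

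Some summits were shared with a neighbouring gene, and each of those named here lay inside a gene. The highest-scoring summit was also within 1000 bp of an end of another protein-coding gene at 11 of 23 marked import genes (47.8%) and at 6 of 35 marked carriers (17.1%), against 25.8% of all marked genes. In the TIM22 and small TIM group it was so at 7 of 8, and without shared summits only Timm22 of the 9 stayed marked. At these 7 the summit lay inside the Timm gene and outside the neighbour. Timm13 shared its summit with Lmnb2 (lamin B2), 716 bp from that gene, and Timm10 with Smtnl1 (326 bp). Timm8b shared one with Sdhd, a subunit of respiratory complex II (245 bp), Timm9 with 2700049A03Rik (374 bp), Timm29 with Yipf2 (272 bp), Timm10b with Arfip2 (332 bp) and Timm8a1 with Btk (869 bp). In the other import groups Timm23 shared with Parg, Timm17b with Pqbp1, Tomm6 with Frs3 and Prickle4, and Tomm40l with Apoa2.

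The 6 carriers with a shared summit were Slc25a11 (with Rnf167), Slc25a32 (Dcaf13), Slc25a40 (Dbf4), Slc25a27 (Cyp39a1), Slc25a22 (Pidd1) and Slc25a25 (Naif1). For Slc25a40 the summit lay inside Dbf4, an activator of DNA replication, 177 bp from its boundary, and outside Slc25a40. Which gene of such a pair a summit belongs to cannot be told from its position.

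**Figure D2:**
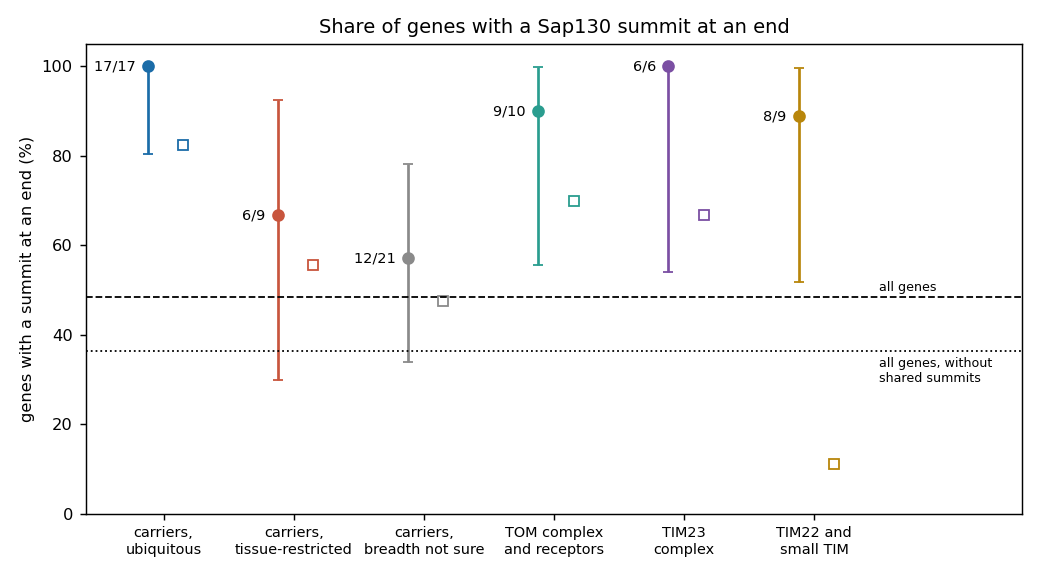
Share of genes with a Sap130 summit within 1000 bp of an end, in percent, by group. Circles with bars are the share with its exact 95% interval and squares the share without summits near 2 or more genes; dashed and dotted lines are the same 2 shares over all genes, and the square of the TIM22 group lies below its line, at 1 of 9.

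Relatives with the same substrate or role did not all carry a summit of similar score. Of 12 groups of paralogs set side by side, 6 held both a marked and an unmarked gene. Paralogs elsewhere in the genome were not counted, so this number has no background beside it. Among ADP/ATP carriers Slc25a5 had 84.7, Slc25a4 54.0 and Slc25a31 no summit. Of the iron carriers Slc25a28 had 70.4 and Slc25a37 none, of the glutamate carriers Slc25a22 had 91.8 and Slc25a18 none, and of the ornithine carriers Slc25a15 had 84.2 and Slc25a2 none. In the import machinery Tomm20 had 50.6 and Tomm20l none, while Timm8b and Timm8a1 had 55.2 and 19.2 and Timm8a2 none. The other 6 groups were marked at each gene. Scores were close at Slc25a12 and Slc25a13 (46.3 and 41.8) and at Timm17a and Timm17b (27.5 and 20.2). They were far apart at Tomm40 and Tomm40l (132 and 8.91), Slc25a40 and Slc25a39 (117 and 16.1) and Timm10 and Timm10b (130 and 51.3). For Slc25a39 the summit nearer to its listed start, not counted at an end, had 50.6. Slc25a33 and Slc25a36 had 99.3 and 57.3.

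In 5 places 2 of the 72 genes were direct neighbours, and at each of them 1 was marked and the other was not. Neighbouring pairs over all genes were not counted, so no background stands beside this. Slc25a5 (84.7) lies 18289 bp from Slc25a43 on chromosome X, Slc25a29 (44.5) lies 13956 bp from Slc25a47, and Slc25a24 (27.4) lies 6566 bp from Slc25a54. Slc25a23 (56.4) lies 2056 bp from Slc25a41. Timm9 (162) and Tomm20l overlap by 51 bp, with the summit at the far end of Timm9. For Slc25a43, Slc25a47, Slc25a54 and Tomm20l the nearest summit was one of that neighbour.

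Summits of the marked genes lay just downstream of the start. Starts and strand were known for 58 of the 72 genes, of which 47 were marked, and at 47 of 47 the highest-scoring summit was nearer to the gene's start than to its last base (8210 of 8473 over all genes). It lay downstream of the nearest annotated start at 42 of 47 (89.4%, against 79.3% over all genes), at a median of 194 bp (quartiles 154 and 249 bp), against 176 bp (82 and 244 bp). From 100 to 400 bp downstream stood 35 of the 47 (74.5%), against 61.8%. The bin from 150 to 200 bp held 15 genes. Slc25a5 was the farthest downstream, at 603 bp, and the 5 upstream ones were Slc25a15 (at -71 bp), Timm23 (-195 bp), Slc25a40 (-290 bp), Slc25a11 (-758 bp) and Slc25a39 (-876 bp). At Slc25a39 and Slc25a11 a further summit lay 188 and 158 bp downstream of that start. At Slc25a15, Slc25a39, Slc25a11 and Slc25a40 the start used lies within the gene. The summit counted as upstream was 273 and 282 bp inside the gene's boundary at Slc25a15 and Slc25a39. It was 266 and 182 bp outside the boundary at Slc25a11 and Slc25a40. Slc25a15 has another listed start at the boundary itself.

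**Figure D3:**
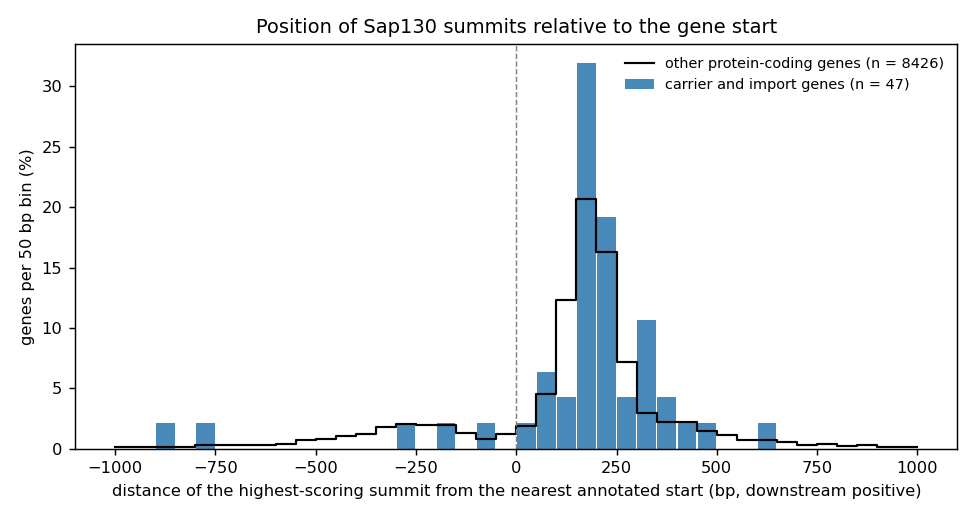
Distance of the highest-scoring summit from the nearest annotated start in bp, downstream positive, in bins of 50 bp, as percent of genes. Bars are the 47 marked carrier and import genes with a known start and the line is the other marked protein-coding genes; both peak from 150 to 200 bp downstream.

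Summits elsewhere inside a gene were few. There were 5, all in carriers: in Slc25a39 (50.6), Slc25a22 (12.0), Slc25a3 (6.86), Slc25a4 (5.46) and Slc25a25 (4.43). Those of Slc25a39, Slc25a22 and Slc25a25 lay 188, 160 and 135 bp downstream of a start that the promoter table lists inside the gene. Those of Slc25a3 and Slc25a4 lay 1254 and 1871 bp from the listed start.

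A second summit stood at an end of 17 of the 58 marked genes (29.3%), against 19.7% of all marked genes. At 13 of the 17 the pair sat astride 1 boundary, 349 to 1035 bp apart with a median of 529 bp, and at 12 of these 13 the higher score was inside the gene. Pairs astride a boundary were not counted over all genes. Over all marked genes with a known start, the highest-scoring summit lay downstream of the nearest start at 79.3%. In the TIM22 and small TIM group 5 of 8 had such a pair or a second summit inside, with scores of 51.3 and 35.6 at Timm10b and 55.2 and 34.5 at Timm8b. Slc25a11 was the exception, with 69.0 outside and 29.2 inside. Slc25a16 and Slc25a44 had a summit at each end. At Slc25a16 the summit near the start had 102 and that past the last base 33.1.

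CpG content was compared in promoter windows. In the window from 250 bases before to 50 after the start, the ratio of CpG observed to that expected from the C and G content had a median of 0.79 over the 47 marked genes and 0.46 over the 11 unmarked ones with a sequence. Over all genes it was 0.80 with a summit and 0.24 without. Broadly expressed carriers had a median of 0.90, tissue-restricted ones 0.57, and TOM, TIM23 and TIM22 genes 0.68, 0.90 and 0.83. Genes were put in 4 equal parts by this ratio. In the lowest part 0 of 2 carrier and import genes were marked (Slc25a18 and Slc25a34), against 4.12% of all genes there, and in the next 11 of 18, against 27.5%. In the third part it was 18 of 20, against 75.5%, and in the highest 18 of 18, against 86.7%. Slc25a31 was unmarked at a ratio of 0.83, the highest of the 11, whereas Slc25a4 and Slc25a5 were marked at 0.78 and 0.67.

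**Figure D4:**
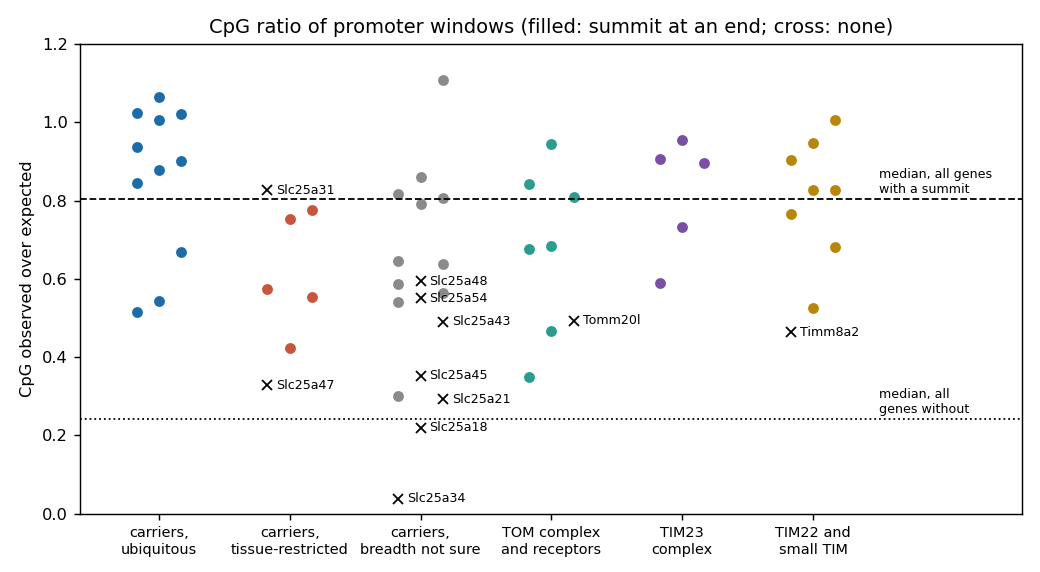
CpG observed over expected in the promoter window of 58 carrier and import genes, by group. Filled points are genes with a summit at an end, crosses with names are genes without, and the lines are the medians of all genes with a summit (0.80) and without (0.24).

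Short motifs were counted in the same windows. The ETS motif CCGGAAG was in 9 of 22 import windows (40.9%) and 7 of 36 carrier windows (19.4%), against 11.9% of all windows and 19.8% of those of marked genes. It was in 5 of 9 windows of the TIM22 and small TIM group. The Sp motif GGGCGG was in 30 of 36 carrier windows (83.3%) and 10 of 22 import windows (45.5%), against 46.3% of all and 70.0% of marked genes. It was in 11 of 11 windows of broadly expressed carriers. The E-box CACGTG was in 11 of 58 windows (19.0%), against 7.91% of all and 10.9% of marked genes.

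The NRF1 motif GCGCANGCG was in 5 of 58 windows (8.62%, against 8.87% of all and 15.8% of marked genes) and the NF-Y motif CCAAT in 24 (41.4%, against 39.2%), 5 copies of it in Tomm40. The YY1 motif AANATGGCG was in 3 windows (5.17%, against 3.28% of all and 5.77% of marked genes), those of Slc25a3, Timm44 and Timm50, in each within 50 bases after the start. TATAAA was in 3 (5.17%, against 13.3% of all and 6.02% of marked genes), ACTACAA of ZNF143 in 2 (3.45%, against 3.82%), and TGACGTCA (CRE) and TTTNGCGC (E2F) in 1 each (1.72%, against 2.33% and 1.76%). Both strands were searched, and overlapping matches to different motifs occurred in 1 gene, Timm50, between NF-Y and E2F. A match is a run of letters and shows no binding.

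Other genes of the same pathways were set beside these. Of 22 further import genes, for chaperones, processing peptidases and outer membrane assembly, 22 were marked (interval 84.6 to 100), against 48.4% of all protein-coding genes. Their list was also drawn up with earlier results of these data known. At 9 of the 22 (40.9%) the highest-scoring summit was shared with another gene, against 25.8% of all marked genes. The median score of the 22 was 63.8, against 49.3 over all marked genes. The highest were Hspa9, the motor chaperone of the matrix (187), Mtx1, of the outer membrane assembly machinery (171), and the chaperonin genes Hspd1 and Hspe1, which share a summit of 166. Of 15 other carriers and channels 11 were marked (73.3%, interval 44.9 to 92.2), against the same 48.4%. Their median score was 61.9, against the same 49.3. Mtch1, an outer membrane relative of the carriers, had 151, and the porin genes Vdac1 and Vdac3 83.5 and 80.6. Unmarked were Ucp1 and Ucp3, the uncoupling proteins of brown fat and muscle, Sfxn4, and Sfxn3, which had a summit 1126 bp inside.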

How the data were processed

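Per the submitters' processing notes, the tools were Bowtie 1.1.2, an aligner, and MACS2 2.1.0.20140616, a peak caller, with build GRCm38 (mm10). Options and the peak threshold were not given in the sources used here. In 1 list, the authors deposited 14886 summits, each with a −log10 score of a p-value or a q-value (which one is unsettled), called for 1 ChIP library against 1 input library. Such scores grow with depth, which is unknown.

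Gene ends came from a RefSeq table of GRCm38.p6. Genes of the mitochondrial genome, genes with no placed chromosome and, except on Y, genes that start before position 3000000 were left out. Strand, starts and sequence came from a RefSeq promoter table, which matched 58 of 72 members and 17492 of 21779 genes. For motifs and CpG, 1 window per gene was used, that of the start nearest to the gene's boundary. The marking was tested on simulated summits.

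The members, gene lists, motifs and settings were chosen with earlier results of these data known. Coordinates and summits are given for the 4 highest-scoring members of each group, the distance to the nearest summit for unmarked members, both scores for paralogs, and the score alone for the others; 1 member counted in its group is not reported here by itself. Settings tried were windows of 500 and 2500 bp, the 7447 and 3728 highest-scoring summits, only summits in reach of at most 1 gene, merging within 500 bp, the gene start only and the summit nearest to a boundary. Carriers of unsure breadth were also counted with either class. The division by CpG ratio was added after seeing the data. Values and figures were made in Python 3.11.15 with pandas 2.3.3, scipy 1.17.1, matplotlib 3.10.9 and numpy 2.4.6.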

Additional observations from a re-analysis of the deposited data

How the results depend on the processing

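Of 82 values recomputed under other settings, 69 stayed the same by the rule used. For counts, the share of genes marked was within 1.5 times the main share. For medians, the value lay within the 95% interval of the main one. The 13 others all came from settings that keep fewer summits. The shares of all carriers and of all import genes are not among the 82. By the same rule that of import genes, 92.0% in the main setting, moved without shared summits (48.0%, against 36.4% of all genes). It also moved with the 3728 highest-scoring summits (32.0%, against 17.3%), and there that of carriers moved from 74.5% to 42.6%. With the 3728 highest-scoring summits, 28 of 72 genes were marked at an end, and 28 at an end or inside, against 17.3% and 19.5% of all genes. By group, 12 of 17 broadly expressed carriers, 2 of 9 tissue-restricted ones, 6 of 21 of unsure breadth, 3 of 10 TOM, 1 of 6 TIM23 and 4 of 9 TIM22 genes were marked there. Median scores were then 98.8 over all members, 93.5 over carriers and 121 over import genes, against 91.8 over all genes marked there. In the main setting the order was the other way, at 70.4 over carriers and 51.3 over import genes, against 49.3 over all marked genes. With the 7447 highest-scoring summits the median over all members was 84.4, against 68.8 over all genes marked there. In that setting 3 of 6 TIM23 genes were marked, against 31.7% of all genes. With only the summits in reach of at most 1 gene, 41 of 72 genes were marked (56.9%, against 36.4% of all genes), among them 1 of 9 TIM22 genes. With a window of 500 bp 15 of 17 broadly expressed carriers were marked (88.2%, against 42.3% of all genes). Counting the carriers of unsure breadth with the tissue-restricted ones gave 18 of 30 (60.0%), and with the broadly expressed ones 29 of 38 (76.3%). The share over all genes was 48.4%. No paired analysis was possible because there was 1 library of each kind. Without replicates or depth, no value here has an error between libraries.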

Other observations

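Scores were also set out by chromosome. Of the 6 members on chromosome X, 5 were marked, with a median of 20.2, against 69.0 over the 53 marked members on autosomes. Slc25a53 had 16.2, Timm8a1 19.2, Timm17b 20.2 and Slc25a14 31.6, while Slc25a5 stood apart with 84.7. Over all protein-coding genes the medians were 19.2 on X (281 of 963 genes marked, 29.2%) and 50.5 on autosomes (10251 of 20560, 49.9%).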
